A study of Mus musculus with 14 samples.

Results

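Translation initiation factors (eIF) and elongation factors (eEF) were followed in mouse heart muscle cells in which the calcium channel gene Ryr2 had been targeted. The members were the rows of the count table whose symbol starts with Eif or Eef and a digit, without the eIF2 kinases Eif2ak1 to Eif2ak4, without the Y-linked copy Eif2s3y, and with at least 100 counts summed over all 14 libraries. They came to 59 of the 23337 genes in the table. Of these, 4 carry a factor's symbol but encode Argonaute proteins of RNA silencing (Eif2c1 to Eif2c4, also called Ago1 to Ago4), so 55 members belong to the translation machinery or bind to it. The symbols Eif3j and Eif4e1b were listed at 0 in every library and were left out. Whether such a 0 reflects absent expression or the assignment of reads was not tested.

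Initiation factors bring the small ribosomal subunit, the initiator tRNA and the capped end of an mRNA together and find the start codon. Elongation factors then carry each aminoacyl tRNA to the ribosome and move the ribosome along. Supply of the initiator tRNA through eIF2 and recognition of the cap through eIF4E are the regulated steps, and both are slowed under stress. The factor that delivers aminoacyl tRNA, eEF1A, exists as a pair of isoforms from separate genes. Eef1a1 is the widespread one, and in rodents Eef1a2 replaces it in adult skeletal muscle, heart and neurons during the first weeks of life.

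Poly(A) RNA was sequenced in 2 groups of Rosa-Cas9GFP mice. The KO group (n = 7) received AAV-Ryr2gRNA, an adeno-associated virus named for a guide against Ryr2, on postnatal day 1. The Ctrl group (n = 7) received AAV-Cre on the same day, and cardiomyocytes of both groups were isolated by Langendorff perfusion and sorted by flow cytometry at 4 weeks of age. The labels name Cre for the Ctrl virus alone and do not say what else the guide virus held, so guide and vector cannot be told apart. They do not tie each replicate to an animal of its own either. The p-values therefore speak of the spread over these libraries, part of which may be technical.

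The libraries held 5689335 to 11064715 counts in KO and 6313220 to 13165662 counts in Ctrl. Ryr2, the targeted gene, stood at 309 ± 48.1 CPM (counts scaled to a common library size) in KO and 675 ± 71.4 CPM in Ctrl (SD, n = 7 each, exact two-sided permutation test p = 0.00058, the smallest that 3432 assignments can give), and the groups did not overlap. All 7 cardiomyocyte markers were detected, with a summed level of 60780 to 84726 CPM in KO and 75966 to 89952 CPM in Ctrl, and 4 of the 7, a list that includes Ryr2, were lower in KO. Macrophage markers summed to 57.4 to 412 CPM in KO and 22.2 to 106 CPM in Ctrl, with 3 of 8 tested markers higher and 0 lower. Markers of pericytes and smooth muscle summed to 1101 to 1939 CPM in KO and 589 to 977 CPM in Ctrl, with 3 of 7 higher, most of that sum being the actin gene Acta2. Fibroblast and endothelial markers had 0 calls in either direction. In sorted bulk cells a change in the share of a cell type and a change in RNA per cell cannot be told apart. Libraries 7 to 10 of the series' index (KO 4 and 5, Ctrl 4 and 5) carried the highest fibroblast, endothelial and macrophage sums of their groups, so the members were also compared within these 4 and within the other 10 libraries.

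Of the 59 members, 58 passed the filter on low counts, and Eif4ebp3 did not. The KO group was higher for 16 of the 58 and lower for 2 (edgeR quasi-likelihood test, Benjamini-Hochberg adjusted over the 11170 genes tested, called at an adjusted p under 0.05). Over all genes tested 14.5% were called higher and 13.7% lower. The share called in either direction was thus 31.0% of the members and 28.2% of all genes. The median log2 fold change of the tested members was 0.07, against 0.01 over all genes tested. KO and Ctrl libraries were fully separate for 10 members, 9 of them above and 1 below Ctrl, while 10.5% of all genes tested were separate in this way (5.84% above and 4.71% below).

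**Figure D1:**
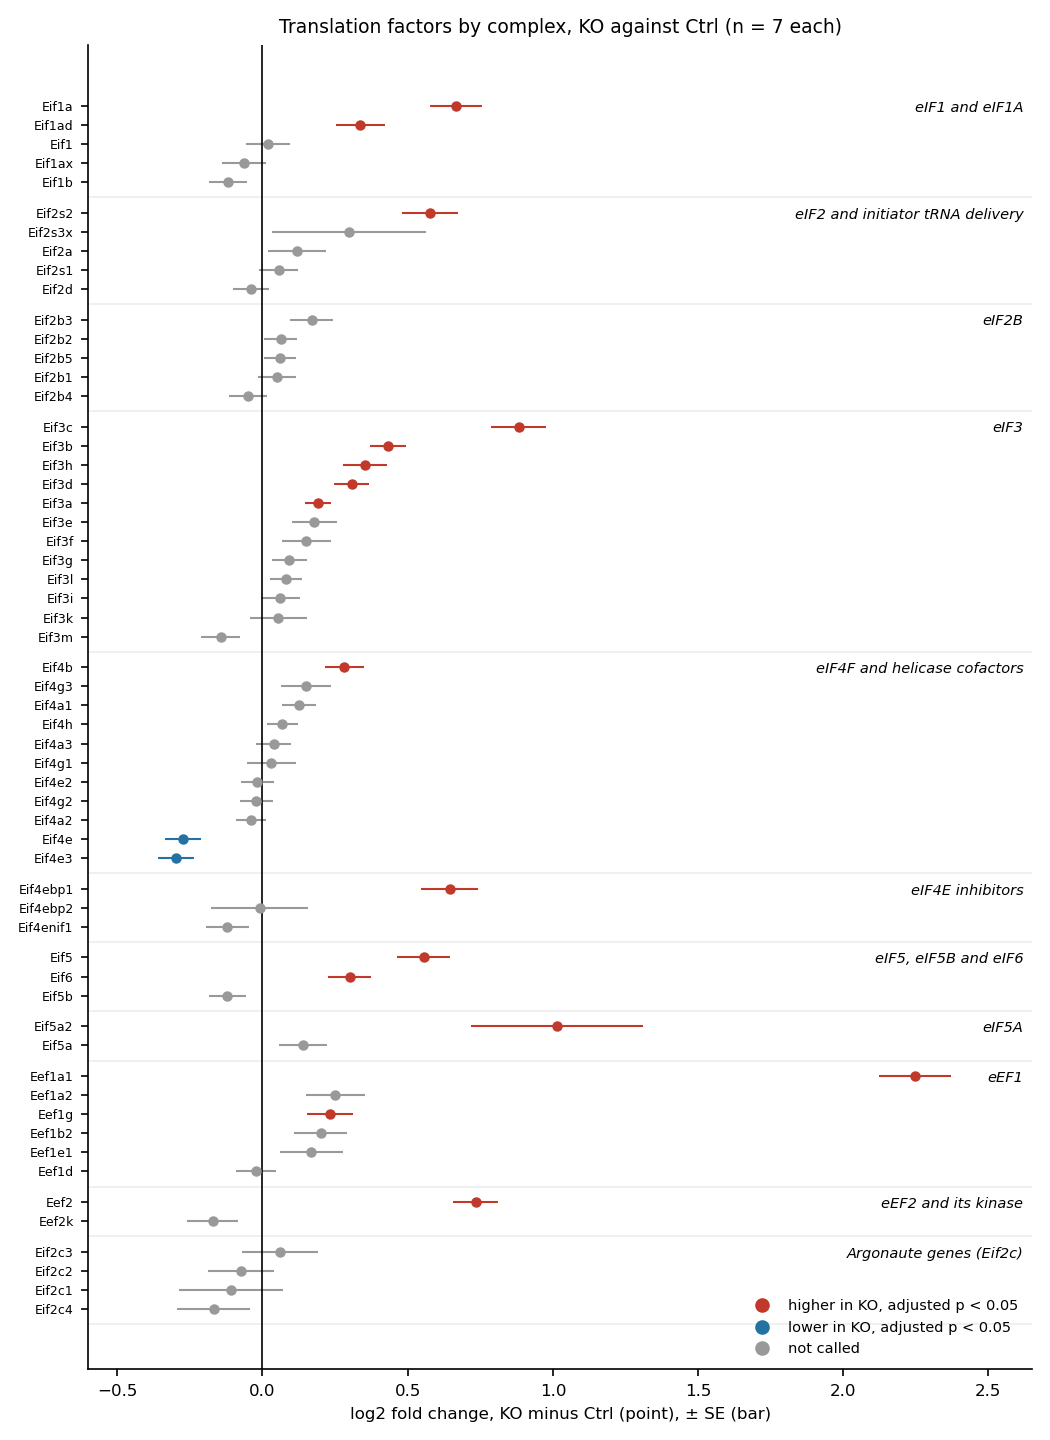
Log2 fold change of KO over Ctrl (point, ± SE) for the 58 tested members, grouped by factor complex, with called members in colour. Eef1a1 stands apart at 2.25, the other called increases lie between 0.19 and 1.01, and the 2 decreases, Eif4e and Eif4e3, lie at -0.27 and -0.30.

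The upstream sequences of the muscle isoform pair and of Eef2 are shown because Eef1a1 had the largest increase of all members and Eef2 was the most abundant of the called members by CPM. They are the 250 bases before the annotated start, from RefSeq (GRCm38.p6), read toward the gene, with capitals for CACGTG or TATAAA. Eef1a1 is at chr9:78481725-78481974 (minus strand), Eef1a2 at chr2:181157016-181157265 (minus strand) and Eef2 at chr10:81176381-81176630 (plus strand).
Eef1a1: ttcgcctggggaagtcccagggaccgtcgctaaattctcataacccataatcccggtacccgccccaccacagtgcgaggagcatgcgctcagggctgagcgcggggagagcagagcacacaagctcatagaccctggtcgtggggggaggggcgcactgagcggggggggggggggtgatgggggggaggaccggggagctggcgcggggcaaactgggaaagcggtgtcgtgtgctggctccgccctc
Eef1a2: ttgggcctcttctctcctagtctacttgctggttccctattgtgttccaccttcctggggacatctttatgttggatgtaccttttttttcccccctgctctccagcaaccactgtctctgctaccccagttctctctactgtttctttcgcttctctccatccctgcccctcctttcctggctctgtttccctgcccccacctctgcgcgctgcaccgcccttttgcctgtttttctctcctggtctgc
Eef2: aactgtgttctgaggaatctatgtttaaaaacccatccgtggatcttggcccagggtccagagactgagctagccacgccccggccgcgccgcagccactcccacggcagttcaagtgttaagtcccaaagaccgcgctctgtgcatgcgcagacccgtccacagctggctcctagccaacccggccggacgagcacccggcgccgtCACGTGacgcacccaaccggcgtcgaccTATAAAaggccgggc
The GC content of these windows was 68.0% for Eef1a1, 54.0% for Eef1a2 and 62.8% for Eef2, against a median of 52.4% over 32851 promoter windows. Neither eEF1A window held any of the searched letters, TGATGNAA (the core of the element bound by ATF4 with C/EBP partners), TATAAA (the TATA box) and CACGTG (an E-box, read the same on both strands), on either strand. The Eef2 window held CACGTG 43 bases and TATAAA 15 bases before the start. RefSeq windows were at hand for 46 of the 59 members. The other 13 were not searched, among them the called members Eif4ebp1, Eif1a, Eif3h, Eif6, Eef1g and Eif4e3. Among the 46 members with a window, CACGTG occurred for 11, against 6.86% of all 27025 genes with a window. TATAAA occurred for 4 members against 14.3% of genes, and TGATGNAA for 2 members, Eef2k and Eif2s3x, against 3.91% of genes. Of the 11 members with CACGTG, Eef2 and Eif5a2 were called higher and Eif4e lower. Over all genes tested 14.5% were called higher and 13.7% lower. A match describes these letters in this window and is not a binding site.

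Eef1a1 was the member with the largest difference. Its level (CPM) was 312, 294, 289, 341, 298, 366 and 474 in KO replicates 1 to 7, against 90.3, 64.2, 61.0, 77.3, 82.6, 61.7 and 61.6 in Ctrl replicates 1 to 7. Every KO library was above every Ctrl library, and KO 7 was the highest. The means were 339 ± 65.7 CPM in KO and 71.2 ± 11.99 CPM in Ctrl (SD, n = 7 each), a log2 fold change of 2.25 (SE 0.12, adjusted p = 2.2e-09), or 4.75-fold. The gene (mm10, chromosome 9, 78478454 to 78481724, minus strand) has an exon length of 1789 bp in the count table.

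Eef1a2 (chromosome 2, 181147692 to 181157015, minus strand) did not pass the test. Its level (CPM) was 169, 184, 204, 160, 157, 174 and 259 in KO replicates 1 to 7, and 167, 152, 175, 134, 152, 148 and 171 in Ctrl replicates 1 to 7. The groups overlapped, although every KO library was above the Ctrl median. Its log2 fold change came to 0.25 (SE 0.10, adjusted p = 0.075). The adjusted p was 0.031 with a term for library indices 7 to 10, 0.0026 with the macrophage marker level as a term, and 0.041 at the lowest on leaving out one library (KO 4 or KO 5 brought it under the threshold), so the call depended on such settings.

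The ratio of the isoforms within each library does not depend on the scaling of libraries. Per length (CPM per kb of exon), Eef1a1 was at 1.62 to 2.44 times Eef1a2 in the KO libraries (median 2.11) and at 0.398 to 0.658 times Eef1a2 in the Ctrl libraries (median 0.483). By these counts Eef1a1 was the more abundant transcript in 7 of 7 KO libraries and the less abundant one in 7 of 7 Ctrl libraries. The mean log2 ratio was 1.05 ± 0.21 in KO and -0.96 ± 0.30 in Ctrl (SD, n = 7 each), a difference of 2.01 (exact two-sided permutation test, p = 0.00058, adjusted p = 0.0023 over the 4 isoform ratios tested). Of the summed eEF1A transcripts per length, Eef1a1 made up 67.4 ± 3.24% in KO and 34.1 ± 4.59% in Ctrl. That sum was 281 ± 50.9 CPM per kb in KO and 117 ± 8.76 CPM per kb in Ctrl, a 2.41-fold difference between the means, and Eef1a2 itself was not lower in KO.

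**Figure D2:**
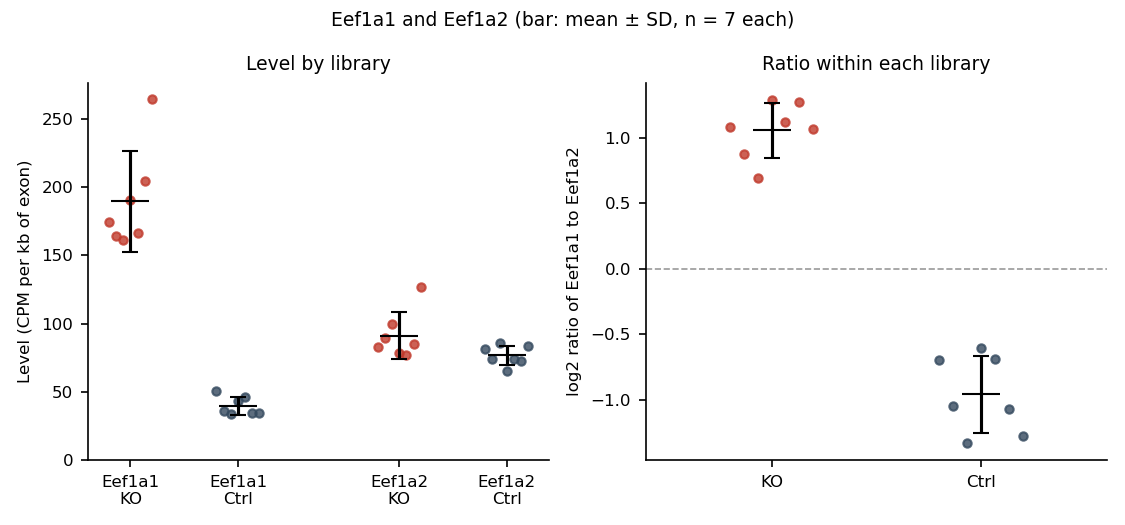
Left, level of Eef1a1 and Eef1a2 in CPM per kb of exon in each library (points) with mean ± SD, KO left of Ctrl for each gene. Right, log2 ratio of Eef1a1 to Eef1a2 in each library, above 0 in all 7 KO libraries and below 0 in all 7 Ctrl libraries.

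Reads of close copies limit how exactly Eef1a1 can be counted. The coding sequences of Eef1a1 and Eef1a2, taken from GENCODE M21 (GRCm38) as the longest open reading frame, were 80.1% identical over 1389 aligned bases, and their longest identical run was 23 bases. Annotated pseudogenes with at least 90% identity over at least 50% of the reading frame numbered 13 for Eef1a1 and 0 for Eef1a2. Over all 59 members they numbered 69, for 22 members, with Eif1 (20) and Eef1a1 ahead. Of the 13 copies of Eef1a1, 1 had a row under the same symbol in the count table, Gm6548, with 93 counts over all libraries against 22709 for Eef1a1. The labels do not say how reads that match several places were counted, so the level of Eef1a1 is uncertain in both groups. The same holds within each group for which isoform was the more abundant, for the share of Eef1a1 and for the eEF1A sum.

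Marker sums of other cell types in the KO libraries stood beside Eef1a1 as follows. KO 6 and KO 7, with the highest Eef1a1 (366 and 474 CPM), had the highest sums of pericyte and smooth muscle markers (1939 and 1602 CPM). Acta2 alone accounted for 1788 and 1515 CPM of these sums. The other markers of that list did not peak in KO 6 or KO 7. Among the KO libraries, Rgs5, Pdgfrb, Kcnj8 and Tagln were highest in KO 4, Cspg4 in KO 5 and Myh11 in KO 1. The sum of that list did not overlap between the groups, as given above, and neither did Acta2 (869 to 1788 CPM in KO, 477 to 807 CPM in Ctrl). KO 4 and KO 5, with the highest macrophage sums (412 and 263 CPM), had 341 and 298 CPM of Eef1a1. The log2 fold change of Eef1a1 was 2.29 with the macrophage marker level as a term (adjusted p = 2.8e-09, edgeR quasi-likelihood test), 1.96 in the 4 libraries of indices 7 to 10 and 2.35 in the remaining 10 libraries. Macrophage sums were themselves higher in KO (median 82.3 CPM, against 34.5 CPM in Ctrl), so the macrophage term cannot fully separate them from the group. The parts of macrophage markers and of pericyte and smooth muscle markers in the Eef1a1 difference were not tested.

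Of the 3 subunits of the exchange factor that reloads eEF1A with GTP, 1 passed, where 28.2% of all genes tested were called. Eef1b2, Eef1d and Eef1g had log2 fold changes of 0.20, -0.02 and 0.23, and the call was that of Eef1g (adjusted p = 0.038, edgeR quasi-likelihood test). Eef1g stood at 68.8 CPM at the lowest, 72.8 CPM at the median and 100.01 CPM at the highest in KO, against 63.3, 64.3 and 71.7 CPM in Ctrl. The groups overlapped, and the call was lost on leaving out any one of 8 libraries (KO 3, 6 or 7, or Ctrl 1, 2, 4, 5 or 6, adjusted p up to 0.073) and among the other 10 libraries (adjusted p = 0.082). Eef1e1, named as a subunit but a component of the multi-tRNA-synthetase complex, had a log2 fold change of 0.17 (adjusted p = 0.28).

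Eef2, the translocase that moves the ribosome by a codon (chromosome 10, 81176631 to 81182509, plus strand), rose. Its lowest, median and highest levels were 474, 541 and 725 CPM in KO and 312, 334 and 367 CPM in Ctrl, and the groups did not overlap. The means were 558 ± 79.7 CPM in KO and 335 ± 18.8 CPM in Ctrl (SD, n = 7 each, log2 0.73, SE 0.08, adjusted p = 3.4e-06). Eef2k, the kinase that inhibits eEF2, stood at 43.2 CPM in KO and 48.6 CPM in Ctrl on average and did not pass (log2 -0.17, adjusted p = 0.16). Ordered by level per length among the 59 members, Eef1a1 was number 4 in KO and number 27 in Ctrl. Eef2 was number 5 in KO and number 4 in Ctrl, and Eif1 was first in both groups (360 CPM per kb in KO and 356 CPM per kb in Ctrl).

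eIF5A, the hypusine-carrying factor that helps ribosomes over difficult stretches, has a main gene, Eif5a, and a rare isoform, Eif5a2. Eif5a2 had 1.22 CPM at the lowest, 3.16 CPM at the median and 3.504 CPM at the highest in KO, against 0.325, 1.23 and 2.05 CPM in Ctrl. The groups overlapped, and 6 of 7 KO libraries were above the Ctrl median. It rose at a very low level (log2 1.01, SE 0.30, adjusted p = 0.017), with 209 counts over all 14 libraries. The call was lost among the other 10 libraries (log2 0.81, adjusted p = 0.12) and with the macrophage marker level as a term (log2 0.84, adjusted p = 0.080). The abundant Eif5a stood at 528 CPM in KO and 480 CPM in Ctrl on average and did not pass (log2 0.14, adjusted p = 0.24).

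Among the tested subunits of eIF3, the large scaffold that sits on the small ribosomal subunit, 5 of 12 were higher and 0 lower. Eif3j, left out above, is not among these 12. Over all genes tested 14.5% were higher and 13.7% lower. Eif3c, a core subunit (chromosome 7, 126546911 to 126566366, minus strand), had 159 CPM at the lowest, 209 CPM at the median and 281 CPM at the highest in KO, against 108, 114 and 127 CPM in Ctrl. The groups did not overlap, and the gene rose by 0.88 on the log2 scale (SE 0.09, adjusted p = 3.8e-06), the largest among initiation factors apart from the rare Eif5a2. Eif3b, the subunit with the RNA-binding and propeller domains, had 232, 255 and 294 CPM in KO against 170, 192 and 202 CPM in Ctrl, again without overlap (log2 0.43, adjusted p = 7.0e-05). Eif3h had 86.9, 99.7 and 122 CPM in KO against 70.8, 80.3 and 92.7 CPM in Ctrl, with overlap (log2 0.35, adjusted p = 0.0020). Eif3d (log2 0.31) and Eif3a (log2 0.19) rose as well, both without overlap. The other 7 subunits, Eif3e, Eif3f, Eif3g, Eif3i, Eif3k, Eif3l and Eif3m, had log2 fold changes between -0.14 and 0.18 and did not pass. The KO mean was 184% of the Ctrl mean for Eif3c and 90.4% for Eif3m, the ends of the range within this complex.

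eIF2 carries the initiator methionyl tRNA and is made of 3 subunits. The beta subunit Eif2s2 (chromosome 2, 154871410 to 154892906, minus strand) had 62.7 CPM at the lowest, 79.9 CPM at the median and 104 CPM at the highest in KO, against 46.6, 53.8 and 59.4 CPM in Ctrl. Its groups did not overlap (log2 0.58, SE 0.10, adjusted p = 2.5e-04). The alpha subunit Eif2s1, the one whose phosphorylation slows initiation, stood at 90.3 CPM in KO and 86.9 CPM in Ctrl on average and did not pass (log2 0.06, adjusted p = 0.59). The gamma subunit has a Y-linked gene, Eif2s3y, left out above, at 47.6 CPM in KO and 65.4 CPM in Ctrl on average. Its X-linked gene Eif2s3x, at 8.90 CPM in KO and 7.22 CPM in Ctrl, escapes X inactivation and gives only part of the gamma transcripts. It had a log2 fold change of 0.30 (SE 0.26, adjusted p = 0.45), and 0.14 with the level of the inactivation transcript Xist as a term (adjusted p = 0.53), Xist being detected in 3 KO and 2 Ctrl libraries. For Eif1ax, another X-linked gene that escapes, the log2 fold change was -0.06 without and -0.07 with that term. Eif2a and Eif2d, which can deliver the initiator tRNA in other ways, did not pass (0.12 and -0.04).

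eIF2B, the exchange factor that recharges eIF2 with GTP and is blocked by phosphorylated eIF2, had no called subunit among its 5 (Eif2b1 to Eif2b5, log2 fold changes between -0.05 and 0.17). By edgeR's quasi-likelihood test 1 of them, Eif2b3, had an unadjusted p under 0.05 (0.034, adjusted p = 0.097), and DESeq2 also called 0. Of all genes tested, edgeR called 28.2% in either direction. Eif2b3 had 24.3, 27.8 and 32.2 CPM in KO (lowest, median and highest) and 22.5, 24.4 and 27.4 CPM in Ctrl, and the groups overlapped.

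Factors of start codon selection and of the last steps of initiation differed from gene to gene. Eif1a, which encodes eIF1A (chromosome 18), had 34.02 CPM at the lowest, 39.5 CPM at the median and 50.4 CPM at the highest in KO, against 22.5, 27.3 and 28.7 CPM in Ctrl, without overlap (log2 0.67, SE 0.09, adjusted p = 3.9e-05). Its X-linked paralog Eif1ax, the more abundant gene, did not pass, with 58.5 CPM in KO and 61.2 CPM in Ctrl on average. Eif1ad, named for an eIF1A-like domain, rose by 0.34 (adjusted p = 0.0071). Eif1 and Eif1b had log2 fold changes of 0.02 and -0.12 and did not pass. Eif5, the GTPase activator of eIF2 (chromosome 12, 111538101 to 111546753, plus strand), had 180 CPM at the lowest, 230 CPM at the median and 284 CPM at the highest in KO, against 131, 157 and 186 CPM in Ctrl. One KO library lay within the Ctrl range, and the gene rose by 0.56 (SE 0.09, adjusted p = 2.2e-04). Eif6, which keeps large ribosomal subunits from joining too early, rose by 0.30 (adjusted p = 0.0058), and Eif5b, the joining GTPase, did not pass (log2 -0.12, adjusted p = 0.17).

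**Figure D3:**
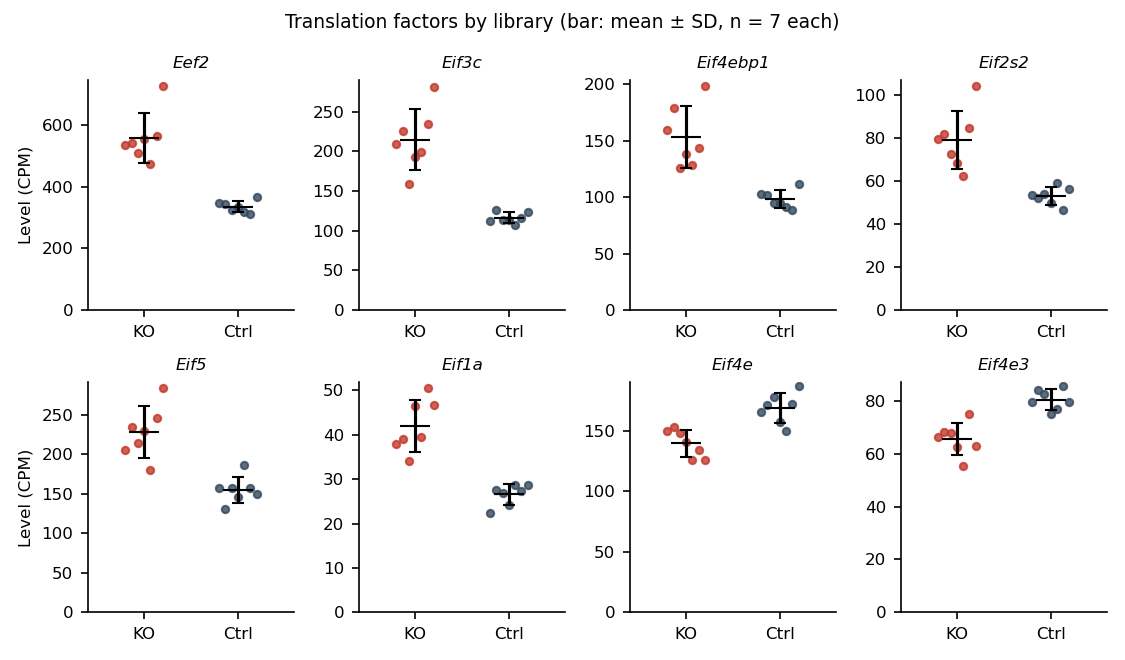
Level in CPM of 8 factors in each library (points), with mean ± SD (n = 7 each) and KO left of Ctrl. Eef2, Eif3c, Eif4ebp1, Eif2s2 and Eif1a show no overlap with higher KO values, Eif5 overlaps by 1 KO library, and Eif4e and Eif4e3 are lower in KO.

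The 2 decreases lay in the group of the cap-binding complex eIF4F and helicase cofactors, both in genes of cap-binding proteins. Eif4e, the main cap-binding protein (chromosome 3, 138526191 to 138557599, plus strand), had 126 CPM at the lowest, 141 CPM at the median and 153 CPM at the highest in KO, against 150, 172 and 187 CPM in Ctrl. The groups overlapped at their edges, and all 7 KO libraries were below the Ctrl median (log2 -0.27, SE 0.06, adjusted p = 0.0035). Eif4e3, a related cap-binding protein (chromosome 6, 99625137 to 99666771, minus strand), had 55.3, 66.1 and 74.8 CPM in KO against 74.9, 79.6 and 85.4 CPM in Ctrl. Its groups were separate by a narrow margin (log2 -0.30, SE 0.06, adjusted p = 0.0018). The third cap-binding gene, Eif4e2, did not pass (log2 -0.02, adjusted p = 0.86). The single higher gene among the 11 of this group was Eif4b, a cofactor of the helicase (log2 0.28, adjusted p = 0.0047). Over all genes tested 14.5% were higher and 13.7% lower.

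The scaffolds and helicases placed in this group did not pass, and not all of them are subunits of eIF4F itself. Eif4g2, the most abundant member by counts, encodes a scaffold without the eIF4E-binding site and stood at 1834 CPM in KO and 1861 CPM in Ctrl on average (log2 -0.02). The classical scaffolds Eif4g1 and Eif4g3 had log2 fold changes of 0.03 and 0.15, the helicases Eif4a1, Eif4a2 and Eif4a3 of 0.13, -0.04 and 0.04, and the cofactor Eif4h of 0.07. The ratio of Eif4a1 to Eif4a2 per length had a median of 2.04 in KO and 1.73 in Ctrl (log2 difference 0.17, exact permutation test, adjusted p = 0.12). The ratio of Eif4g1 to Eif4g3 had a median of 8.72 in KO and 8.78 in Ctrl (log2 difference -0.12, exact permutation test, adjusted p = 0.25). Neither ratio passed.

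Of the 3 tested proteins that bind and restrain eIF4E or carry it, 1 rose, where 14.5% of all genes tested were higher. Eif4ebp1, which when unphosphorylated keeps eIF4E from the scaffold and is a known target of the stress factor ATF4 (chromosome 8, 27260327 to 27275656, plus strand), had 160, 179, 126, 138, 128, 144 and 198 CPM in KO replicates 1 to 7, against 103, 102, 95.2, 94.8, 91.0, 89.0 and 112 CPM in Ctrl replicates 1 to 7. Every KO library was above every Ctrl library, with means of 153 ± 27.3 CPM in KO and 98.1 ± 7.98 CPM in Ctrl (SD, n = 7 each, log2 0.64, SE 0.10, adjusted p = 1.0e-04). Eif4ebp2 was low, with 3.47, 5.43, 6.10, 6.33, 4.95, 6.18 and 7.64 CPM in KO replicates 1 to 7 and 4.61, 6.44, 5.68, 5.38, 6.55, 7.47 and 4.66 CPM in Ctrl replicates 1 to 7. Its groups overlapped throughout (log2 -0.01, SE 0.17, adjusted p = 0.98). Per length Eif4ebp1 was at a median of 46.9 times Eif4ebp2 in KO and 30.5 times in Ctrl (log2 difference 0.67, exact permutation test, adjusted p = 0.013 over the 4 ratios, and 0.063 among the other 10 libraries). Eif4ebp3 had 101 counts in all and was not tested, and Eif4enif1, which carries eIF4E into the nucleus, did not pass (log2 -0.12, adjusted p = 0.26).

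None of the 4 Argonaute genes among the members was called by edgeR's quasi-likelihood test or by DESeq2 (0 of 4, and 0 at an unadjusted p under 0.05). Eif2c4 had the smallest p of them, with 10.9, 14.3 and 16.4 CPM in KO (lowest, median and highest) and 11.4, 15.2 and 19.9 CPM in Ctrl, and the groups overlapped (log2 -0.17, adjusted p = 0.35). The other log2 fold changes were -0.11 for Eif2c1, -0.07 for Eif2c2 and 0.06 for Eif2c3. Of all genes tested, edgeR called 28.2% in either direction.

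Most members are moderately to highly expressed, and above 6 log2 CPM genes of these cells were more often lower than higher in KO. Among the 2022 tested genes with a mean level between 6 and 8 log2 CPM, 15.5% were higher and 26.6% lower, with a median log2 fold change of -0.06. The 28 members in this range included 11 higher and 2 lower genes, with a median of 0.09. Among the 553 genes over 8 log2 CPM, 11.4% were higher and 47.4% lower, and the 5 members there included 1 higher and 0 lower genes. Among the 4221 genes between 4 and 6 log2 CPM, 15.9% were higher and 11.9% lower, and the 19 members there included 3 higher and 0 lower genes. All members together took 0.801% to 0.950% of the raw counts of a KO library and 0.683% to 0.714% of those of a Ctrl library. These shares were taken before the library scaling used for CPM. The scaling factors were 0.997 to 1.11 in KO and 0.910 to 1.01 in Ctrl, so the shares differ more between the groups than the scaled levels do.

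**Figure D4:**
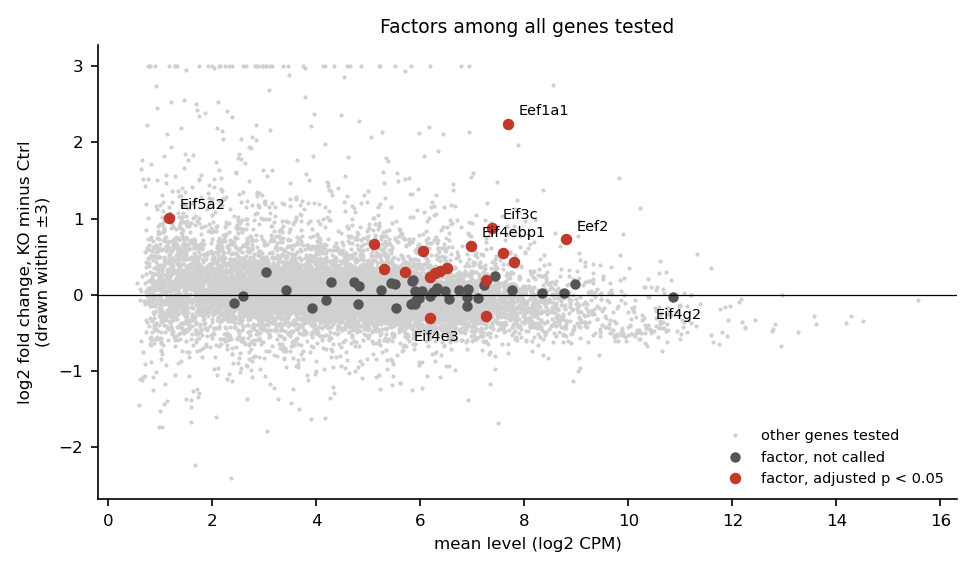
Log2 fold change of KO over Ctrl against mean level in log2 CPM for all genes tested (grey, drawn within ±3) and the 58 tested members (large points). Called members lie mostly above 0 in the range between 4 and 9 log2 CPM, where the cloud of other genes turns downward with level.

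Genes that act beside these factors were counted from 6 lists. Of 21 tested genes that link mTORC1 signalling to translation, 5 were higher and 2 lower (median log2 fold change 0.06), where 14.5% of all genes tested were higher and 13.7% lower. Sesn2, a leucine sensor that restrains mTORC1 (log2 2.36, adjusted p = 5.2e-04, 35.9 ± 29.9 CPM in KO and 7.12 ± 1.29 CPM in Ctrl), Ddit4l, another inhibitor of mTORC1 (1.02), Sesn3 (0.84), the eIF4A inhibitor Pdcd4 (0.73) and the eIF4E kinase Mknk1 (0.30) were higher. The RagD gene Rragd (-0.78, adjusted p = 7.4e-06) and the eIF4E kinase Mknk2 (-0.18) were lower. Of the poly(A)-binding group of 6, Pabpc1 (0.38) and Pabpc4 (0.25) were higher and the inhibitor Paip2 (-0.16) lower. In the group for termination, recycling and re-initiation 1 of 6 tested genes was higher, the ribosome-recycling ATPase Abce1 (0.16). Among the enzymes that modify eIF5A and eEF2 it was Dph5 (0.36), 1 of 6, and in the selenocysteine group Eefsec (0.40), 1 of 3. Among the factors of the separate mitochondrial system 6 of 9 were lower and 0 higher (median -0.31), among them Gfm1 (-0.31) and Gfm2 (-0.32). Tufm, the mitochondrial counterpart of eEF1A, had 143 ± 12.7 CPM in KO and 195 ± 15.97 CPM in Ctrl (SD, n = 7 each, log2 -0.45, adjusted p = 8.5e-05, edgeR quasi-likelihood test), and the mitochondrial initiation factor Mtif2 fell by 0.43 on the log2 scale.

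Among the 18 called members, the direction was kept by all 18 in both sets of libraries, indices 7 to 10 and the other 10. Members were sorted into called and not called on these same libraries, so agreement of the sets is not independent support. With 2 libraries a group, 7 remained called within indices 7 to 10, namely Eef1a1, Eef2, Eif1a, Eif3c, Eif4e3, Eif4ebp1 and Eif5a2, while 16 remained called among the other 10. The log2 fold changes of the sets were more than 1.5 times apart for 8 of the 18. They were smaller within indices 7 to 10 than among the other 10 for 6 members, at 0.22 and 0.69 for Eif2s2, 0.26 and 0.66 for Eif5, 0.23 and 0.50 for Eif3b, 0.11 and 0.37 for Eif3d, 0.11 and 0.41 for Eif1ad, and 0.14 and 0.25 for Eef1g. They were larger within indices 7 to 10 for Eif5a2 (1.38 against 0.81) and Eif4e3 (-0.41 against -0.27). Of the 40 members that were not called, 12 had opposite signs in the sets, among them Eif2b1 (-0.20 within indices 7 to 10 and 0.13 among the other 10), Eif3g (-0.14 and 0.17) and Eif1 (-0.19 and 0.08), and none of the 12 was called in either set by edgeR's quasi-likelihood test. The difference between the sets was not tested, nor was the part of the higher non-muscle markers in it.

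**Figure D5:**
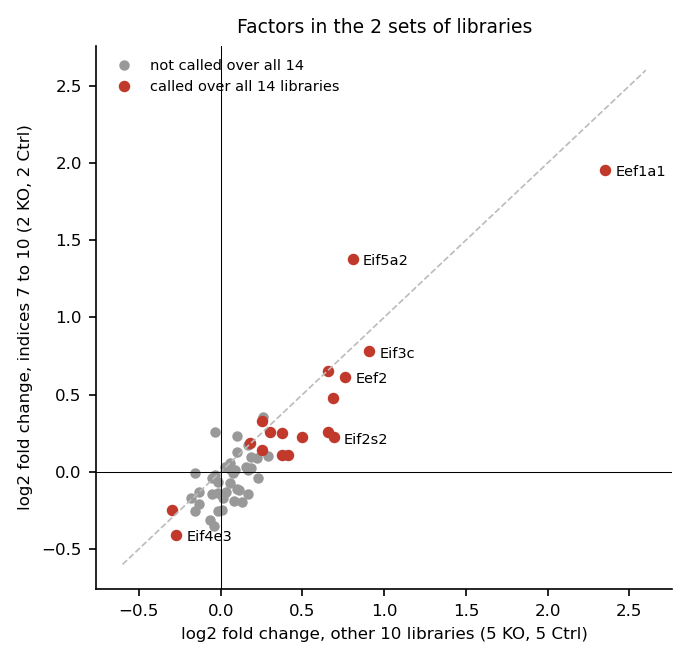
Log2 fold change of KO over Ctrl within library indices 7 to 10 (vertical, 2 KO and 2 Ctrl) against that among the other 10 libraries (horizontal, 5 KO and 5 Ctrl) for the 58 tested members. The dashed line marks equal values. Eef1a1 lies at 1.96 and 2.35, and Eif2s2 and several others lie well below the line.

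Of the 59 members, the authors' deposited table has 15 higher and 2 lower at an adjusted p under 0.05. The file does not name the direction, which was read from Ryr2 (-1.14 in the authors' deposited table). Eef1g was the single member on the other side of the threshold there (adjusted p = 0.051 in the authors' deposited table), and Eef1a1 was listed at a log2 fold change of 2.24 in the authors' deposited table.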

How the data were processed

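The deposited files hold whole-number read counts per gene for 14 libraries (SMART-Seq v4 cDNA and Nextera XT, per the labels' protocols) and a table of the authors' own comparison. STAR, featureCounts, DESeq, DESeq2 and the build mm10 are named in the submitters' processing notes, without versions, annotation or strand setting. In the authors' deposited table the mean signal per gene is the count divided by size factors, the score is the log2 fold change over its standard error, and p-values are given raw and adjusted, per the file headers; the exon length per gene is a column of the deposited counts. No row lacked a gene name (0), and 0 columns of per-sample values were unmapped.

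The test was edgeR 4.0.16 (R 4.3.3), quasi-likelihood, with filterByExpr, TMM scaling and no covariates; the SE was the log2 fold change over the square root of F. It was tested on simulated data. CPM used TMM-scaled library sizes. Isoform ratios used CPM per kb plus 0.01. DESeq2 1.42.0 was an alternative. SMART-Seq reads carry no molecular identifiers and are unstranded here, so overlapping genes cannot be told apart. Counts of replicates differed beyond sampling noise (chi-square over degrees of freedom, 4.58 to 26.9). The members, complexes and gene lists were chosen with earlier results of these data known. The rule for named genes allowed any member, with library values for Eef1a1, Eef1a2, Eif4ebp1 and Eif4ebp2, for the member with the smallest p in each complex and for the 10 largest changes (as lowest, median and highest outside the first 4), and, of each further list, up to 4 genes by smallest p, plus all genes behind a count that did not exceed 5.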

Additional observations from a re-analysis of the deposited data

Results flagged for a closer look

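A single library stood apart within its group for 7 of 126 member-and-group or ratio-and-group sets examined, by the gap between the extreme library and its nearest neighbour relative to the group's range. Chance flags about 1 in 20 such sets. All 7 came from replicate 7 of either group. KO replicate 7 was the highest KO library for Eef1a1 (474 CPM, the other 6 libraries 289 to 366), Eef2 (725 CPM, others 474 to 565), Eef1b2 (83.0 CPM, others 50.7 to 62.2) and Eif3i (98.4 CPM, others 72.9 to 82.7). Ctrl replicate 7 was the highest Ctrl library for Eif2s1 (103 CPM, others 81.0 to 85.8) and Eif3e (68.5 CPM, others 48.8 to 51.8) and the lowest for Eif4g3 (34.7 CPM, others 42.5 to 47.4). Without KO replicate 7 the log2 fold change was 2.15 for Eef1a1 and 0.66 for Eef2, both still called. Without Ctrl replicate 7 Eif3e passed, at 0.25 (adjusted p = 0.0070, edgeR quasi-likelihood test). KO replicate 7 held the highest KO value for 28 of the 59 members and Ctrl replicate 7 the highest Ctrl value for 24.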

How the results depend on the processing

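The member counts stayed within 1.5 times of 16 higher and 2 lower under DESeq2, its size factors and no filter. They also did with terms for Xist, macrophage markers or library index, among the other 10 libraries, and on leaving out one library. Leaving out one library gave 15 to 17 higher and 2 to 3 lower members (all genes 1433 to 1664 higher and 1284 to 1527 lower). Higher members numbered 14 among the other 10 libraries (all genes 1379) and 18 with the macrophage term (all genes 1553). With the library index term they numbered 17 (all genes 1891). Within library indices 7 to 10 the counts were 6 and 1, and 689 and 777 over all genes; fewer samples entered that fit. There the log2 difference was 1.85 for the ratio of Eef1a1 to Eef1a2 (exact permutation adjusted p = 0.44), 0.60 for Eif4ebp1 to Eif4ebp2 (0.44) and -1.21 for Ryr2 (exact permutation p = 0.33), where 2 against 2 libraries cannot pass. Among the other 10 the ratio of Eif4ebp1 to Eif4ebp2 was 0.70 (exact permutation adjusted p = 0.063). On leaving out one library the log2 differences were 1.95 to 2.07 for Eef1a1 to Eef1a2, 0.13 to 0.22 for Eif4a1 to Eif4a2 (0.22 without Ctrl 5, exact permutation adjusted p = 0.023), -0.16 to -0.06 for Eif4g1 to Eif4g3, 0.54 to 0.75 for Eif4ebp1 to Eif4ebp2 and -1.18 to -1.06 for Ryr2. The cause of these changes was not tested. Replicate numbers are shared by the groups, and same-numbered libraries deviated together with correlations of 0.061 to 0.53 (6 of 7 over 0.1, median 0.25, against -0.043 for other pairs); since 1 pair stayed under 0.1, the numbers were not taken to pair the libraries; with the replicate block 19 members were higher and 3 lower, all 18 called members among them and, newly, Eef1a2 (log2 0.23, adjusted p = 0.014), Eef1b2 (0.19, 0.037), Eif3e (0.18, 0.026) and Eif3m (-0.15, 0.041) by edgeR, and the ratio tests kept their side of the threshold (2.01 for Eef1a1 to Eef1a2, exact permutation adjusted p = 0.031).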
